A study of Mus musculus with 2 samples.

Results

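Chromatin loops around Nr2f2 and Nr2f1, the genes of the orphan nuclear receptors COUP-TFII and COUP-TFI, were compared between diestrus and estrus in the mouse uterus. A loop belonged to a locus when at least 1 of its anchors lay inside a window of 2 Mb on the mm10 build. The Nr2f2 window was chromosome 7 from 69.5 to 71.5 Mb, and the Nr2f1 window was chromosome 13 from 77.2 to 79.2 Mb. These windows held 138 of the 50371 loops in both deposited lists. In diestrus they held 78 of 26240 loops, 62 at Nr2f2 and 16 at Nr2f1. In estrus they held 60 of 24131 loops, 46 at Nr2f2 and 14 at Nr2f1.

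Uteri came from intact CD-1 mice, an outbred stock, that were 2 months old and had received no treatment or exposure. The diestrus group and the estrus group differed in their labels only by the stage of the cycle and had 1 Hi-C library each. Hi-C joins and sequences pairs of DNA segments that lie near each other in the nucleus, and these libraries were made with the Arima HiC kit. The number of animals behind each library is not stated in the sources used here. No difference between the stages can therefore be tested, and no interval below covers the spread between animals. Where an interval belongs to contacts or a contact ratio it holds just the counting error, and where it belongs to a share or a median it describes the spread over loops. The uterus is a mixture of epithelium, stroma, muscle and other cells, so a contact made in fewer cells and a contact made less often per cell cannot be told apart. Loop lists carry no expression values, so the tissue could not be checked against marker genes.

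COUP-TFII is expressed in the uterine stroma. Progesterone acting through its receptor, Pgr, induces Indian hedgehog (Ihh) in the epithelium, and Ihh signals through Ptch1 and Smo to Gli factors in the stroma, where Nr2f2 is a target. COUP-TFII then raises Bmp2 and Wnt4 during decidualization and limits the action of estrogen on the epithelium. COUP-TFI is a close paralog, best known from the patterning of the brain cortex and the eye. Genes of developmental transcription factors often lie in gene deserts, long stretches without other protein-coding genes that hold distal regulatory elements.

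Apart from 1 predicted gene upstream of Nr2f2, the description as a gene desert held on both sides of Nr2f2 and on 1 side of Nr2f1. The Nr2f2 window held 25 annotated genes, of which 2 were protein-coding, Nr2f2 itself (chr7:70351946-70366746) and the predicted gene Gm44812 on its upstream side (chr7:70509157-70584961). Of the remainder, 19 were long non-coding RNA genes, 3 were pseudogenes and 1 was a small nucleolar RNA gene. The next named protein-coding genes were Arrdc4, an arrestin-like gene 1603 kb away on the downstream side, and Mctp2, a calcium-binding membrane protein gene 1711 kb away on the upstream side. The Nr2f1 window held 20 genes, of which 4 were protein-coding (2210408I21Rik, Fam172a, Pou5f2 and Nr2f1). Fam172a lay only 22.7 kb downstream of Nr2f1 (chr13:78188971-78198873), while on the upstream side the next protein-coding gene, Arrdc3, lay 2685 kb away. Both genes are on the minus strand, so positions of lower coordinate are downstream of them and positions of higher coordinate are upstream.

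The sequence before the most upstream start site of each gene is shown. The position of that start decides which loops below are called upstream, downstream or across. Loops at a gene are counted by either end of the gene. Each is the RefSeq window of 300 bases on GRCm38.p6, 250 before and 50 after the start, read on the minus strand, and both members were matched by symbol. The Nr2f2 window is chr7:70366697-70366996 and lies inside an anchor with many loops. The Nr2f1 window is chr13:78198824-78199123 and lies in a bin without a loop, beside an anchor that starts 1128 bases from the transcription start. Capitals mark the dinucleotide CpG.
Nr2f2: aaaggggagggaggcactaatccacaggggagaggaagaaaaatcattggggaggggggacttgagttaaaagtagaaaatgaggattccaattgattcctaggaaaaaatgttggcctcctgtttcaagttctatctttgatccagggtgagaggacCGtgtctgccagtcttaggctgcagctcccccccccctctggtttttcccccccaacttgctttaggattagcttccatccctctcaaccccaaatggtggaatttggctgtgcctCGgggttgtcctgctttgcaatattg
Nr2f1: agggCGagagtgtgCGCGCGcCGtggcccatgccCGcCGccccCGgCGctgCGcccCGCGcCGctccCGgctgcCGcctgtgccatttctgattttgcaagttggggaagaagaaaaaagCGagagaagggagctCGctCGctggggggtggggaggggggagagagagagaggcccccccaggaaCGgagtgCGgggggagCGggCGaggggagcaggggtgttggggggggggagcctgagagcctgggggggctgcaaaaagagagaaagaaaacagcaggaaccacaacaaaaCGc
The Nr2f2 window had 2 CpG and a GC content of 49.7%, and 14.1% of the 32851 promoter windows in the table had fewer CpG. That window covers a single start of Nr2f2, and the rest of the gene was not examined for CpG. The Nr2f1 window had 23 CpG and a GC content of 68.0%, and 78.5% of promoter windows had fewer CpG. RefSeq gives a second Nr2f1 start, at 78196449, whose window is not shown and had 4 CpG and 43.0% GC. Fewer CpG than in that window were found in 31.4% of promoter windows, so the high CpG number holds for 1 of the Nr2f1 starts. The medians over all windows were 7 CpG and 52.7% GC. On either strand, neither of the sequences shown held an estrogen response element spelled as GGTCA, 3 bases and TGACC, which 0.0700% of promoter windows hold. Neither held a COUP-TF direct repeat spelled as AGGTCA, 1 base and AGGTCA, which 0.0396% hold. Neither held a CTCF core motif, which 1.22% hold. Neither held a single AGGTCA, which 16.3% hold and which is contained in the direct repeat. These absences say only that those letters are not in these 300 bases.

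Over the whole lists, contacts at called loops summed to 4533525 in diestrus and 4153485 in estrus, and the depth of the libraries themselves is not analysed here. The estrus list had 0.920 times as many loops as the diestrus list, and this ratio was 0.813 on chromosome 7 and 0.937 on chromosome 13. The number of contacts at a paired loop had a median ratio of 0.957, estrus over diestrus. Only called loops are listed, so a loop missing from a list does not show that its contacts were absent.

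Nr2f2 was among the most densely looped parts of the genome in both stages, with fewer loops in estrus. Its 62 loops in diestrus were reached or exceeded by 5 of 1301 windows of 2 Mb (0.384%), and its 46 in estrus by 25 of 1299 windows (1.92%), where the median window had 25 and 23 loops. The ratio of loop numbers was 0.742, against 0.813 for its chromosome. Contacts at these loops summed to 8425 in diestrus and 5125 in estrus. Nr2f1 had an ordinary number of loops, since 72.1% of windows in diestrus and 73.1% in estrus had at least as many. Contacts at its loops summed to 1192 in diestrus and 926 in estrus.

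**Figure D1:**
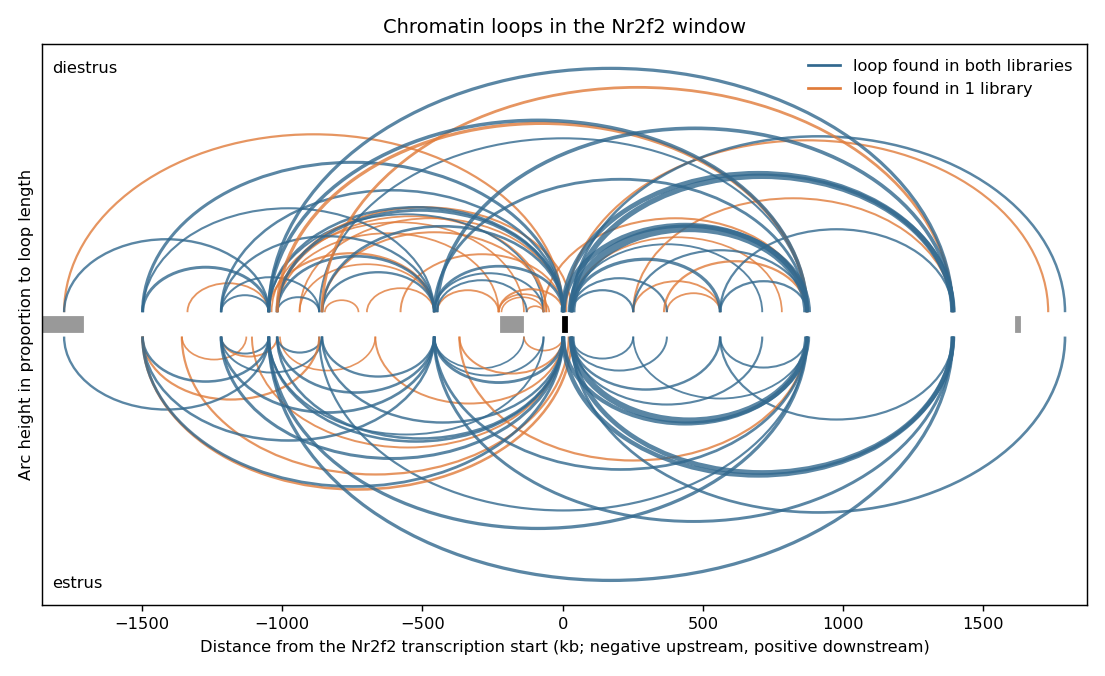
Each arc is 1 loop of the Nr2f2 window, with diestrus above and estrus below. The horizontal axis is the distance from the Nr2f2 start in kb, arc height follows loop length, and line width grows with strength. The black box is Nr2f2, grey boxes are other protein-coding genes, blue arcs are loops found in both libraries and orange arcs loops found in 1. The thickest arcs run from the start region to anchors about 872 and 1392 kb downstream, and 27 diestrus and 11 estrus arcs are orange.

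Loops with an anchor in either window were long at the median. The median Nr2f2 loop was 755 kb long in diestrus (95% interval 510 to 940) and in estrus 745 kb (460 to 1040), where all loops had medians of 240 and 230 kb. The median Nr2f1 loop spanned 630 kb (220 to 1140) and 950 kb (220 to 1360). Loops of 800 kb or more made up 46.8% (34.0 to 59.9, Clopper-Pearson) of the Nr2f2 loops in diestrus and 47.8% (32.9 to 63.1) in estrus. At Nr2f1 they made up 50% (24.7 to 75.3) and 64.3% (35.1 to 87.2), against 12.3% and 12.2% of all loops. The longest Nr2f2 loop joined bins 68970001 and 71410001 over 2440 kb in both stages, with 91 contacts in diestrus and 84 in estrus. The windows themselves keep loops that reach far outside them, so part of this length comes with the choice of loops. With both anchors inside, the median was 480 kb in diestrus and 460 kb in estrus at Nr2f2. At Nr2f1 it was 290 and 340 kb, nearer to that of all loops.

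Strength, the number of contacts over the number expected from the surrounding donut-shaped neighbourhood, was ordinary at the median. The median Nr2f2 loop had 3.20 times its expected contacts (2.81 to 3.54) in diestrus and 3.46 times (2.86 to 4.17) in estrus, with 3.28 and 3.43 for all loops. The median Nr2f1 loop had 3.14 times (2.37 to 4.04) and 3.37 times (2.72 to 4.15). Strengths spanned a wider range at Nr2f2, from 1.81 to 17.4 in diestrus and from 1.84 to 13.3 in estrus. At Nr2f1 they ran from 2.21 to 4.64 and from 2.31 to 5.16, so no Nr2f1 loop came near the strongest Nr2f2 loops.

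The 4 strongest Nr2f2 loops joined a pair of anchors at the gene to a pair of distant anchors downstream. Anchors are named here by the first base of their 10 kb bin. Bin 70360001 holds the Nr2f2 start, together with the start of B130024G19Rik, a long non-coding RNA gene that runs the other way. Bin 70330001 lies beyond the 3' end of Nr2f2, its centre 31.7 kb downstream of the start, and holds an end of the long non-coding RNA gene Gm29683. The distant anchors were bin 69490001, centred 872 kb downstream, which holds ends of the non-coding genes Gm38584, 4930402F11Rik and Gm23815, and bin 68970001, centred 1392 kb downstream, which holds no gene end.

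The strongest of them joined 69490001 and 70330001 with 829 contacts (774 to 887, exact Poisson) in diestrus and 541 (496 to 589) in estrus. These were 17.4 and 13.3 times the expected number, ranks 151 and 282 among all loops of each list and 140 and 189 among the 6339 and 5699 loops of 500 kb or more. The loop from 68970001 to 70330001 had 372 contacts in diestrus and 245 in estrus, 11.4 and 9.57 times the expected. The loop from 69490001 to 70360001, the start bin, had 424 and 302 contacts, 10.3 and 8.06 times the expected. The loop from 68970001 to 70360001 had 282 and 196 contacts, 9.75 and 8.75 times the expected. All 4 occupied identical bins in both stages, and each had fewer contacts and a lower strength in estrus.

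The strength of these loops depended on the neighbourhood used for the expectation. For the loop from 69490001 to 70330001 it was 20.9 in diestrus and 15.1 in estrus against the vertical neighbourhood, but 6.18 and 5.42 against the horizontal one. For the loop from 69490001 to the start bin it was 21.1 and 15.7 against 2.71 and 2.51. The expected contacts of these loops were thus much higher in the horizontal neighbourhood than in the vertical one, and estrus was the lower stage against either. The loops share anchor 69490001, and their other anchors, 70330001 and the start bin, lie close together. Whether the contacts of either loop raised the expectation of the other was not tested.

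The bin with the Nr2f2 start had the largest number of loops in the window. It had 12 loops in each stage, 10 to partners upstream of the gene and 2 to partners downstream in both stages. Few bins had so many: 29 of 26372 anchor bins (0.110%) had at least 12 loops in diestrus and 16 of 25215 (0.0635%) in estrus, where the median bin had 1. Bin 70330001, 3 bins away, faced the other way. Of its 9 diestrus loops 8 ran to downstream partners, and of its 8 estrus loops 7.

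Upstream, bin 70820001 (centred 458 kb from the start) had 10 and 9 loops, and bin 71410001 (1048 kb) had 9 and 7. Bin 71380001 beside it (1018 kb) had 7 and 4. Bin 71580001 (1218 kb) lies outside the window and had 4 and 5 loops of the window. Further loops of the lists joined it to 68970001, 69490001 and 71860001 in both stages. None of these 4 bins holds an end of an annotated gene. Downstream, bin 69490001 had 10 and 8 loops of the window and bin 68970001 had 7 and 5. Both bins lie outside the window at lower coordinates, so by the choice of loops all these partners were of higher coordinate. A further loop, outside that choice, joined bins 68970001 and 69490001 to each other in both stages. Loops with no anchor inside the window are left out of these numbers. So counted, the loops of the window had 9 anchor bins with at least 5 loops in diestrus and 8 in estrus, 11 bins in all. Of the 53 pairs of these bins that lie at least 50 kb apart, the length of the shortest loop in either list, a loop of the lists joined 32 in diestrus, 31 in estrus and 28 in both. The bins were picked for their many loops, so the choice itself favours joined pairs, and no share for other bins was computed.

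**Figure D2:**
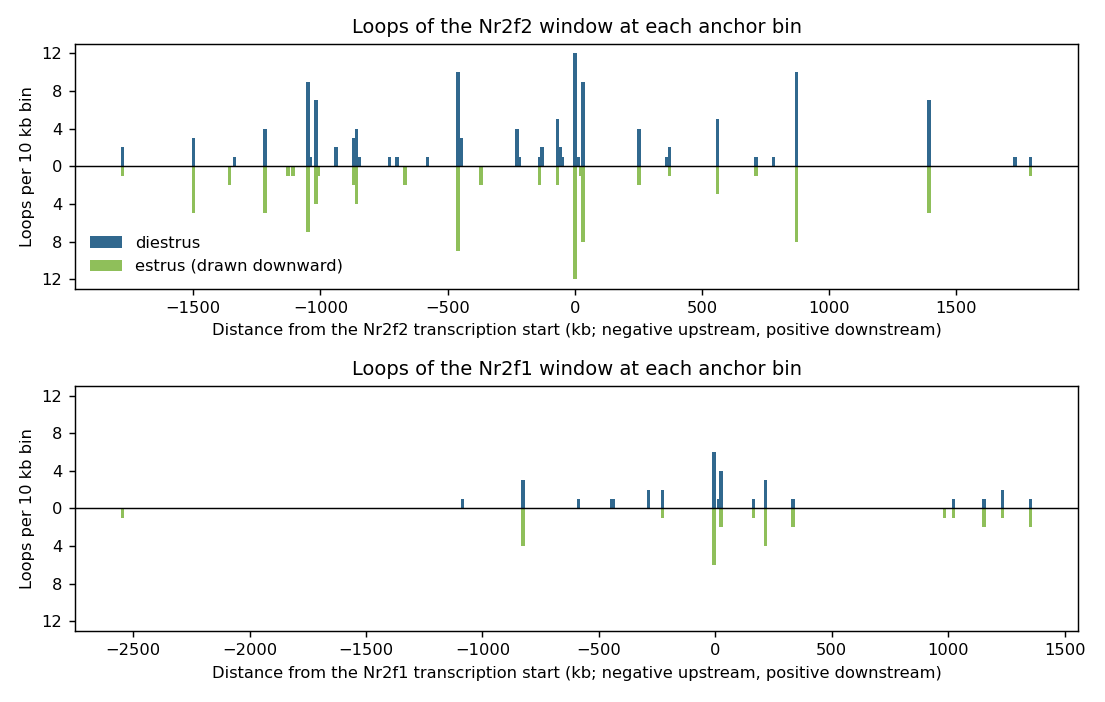
Bars give the number of loops of the window at each 10 kb anchor bin, with diestrus drawn upward and estrus downward. The horizontal axis is the distance from the start of Nr2f2 (top) or Nr2f1 (bottom), in kb. Loops with no anchor inside the window are not counted. The Nr2f2 start bin has 12 loops in both stages, while at Nr2f1 the highest bar is 6 in both stages, just upstream of the start.

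At an end of Nr2f2 itself, including its 3' end in bin 70350001, there were 13 loops in diestrus with 2088 contacts and 12 in estrus with 1624. Of these, 8 were found in the other library. Besides the 2 downstream loops given above, they were upstream loops from the start bin. The loop to 70820001 had 296 contacts in diestrus and 244 in estrus (4.65 and 4.90 times the expected). That to 71380001 had 265 and 159 (5.44 and 4.17 times), and that to 71410001 had 208 and 169 (4.28 and 4.14 times). Loops to 71220001 had 123 and 96 contacts, to 71580001 83 and 79, and to 71860001 72 and 60. Contacts at all 8 were fewer in estrus, while the strength of the loops to 70820001 and 71580001 was the higher in estrus (4.12 and 5.35 times for the latter).

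The other loops at the gene were listed in a single stage. In diestrus the start bin was joined to 70590001 (137 contacts), 70940001 (63), 71300001 (55) and 72140001 (49), and the 3' end of the gene to 68630001 (31). In estrus the start bin was joined to 70500001 (118 contacts), 70730001 (93), 71030001 (55) and 71470001 (53). Their strengths lay between 2.06 and 3.32, below those of the 8 found in both stages, of which the weakest, to 71220001 in estrus, had 3.82 times its expected contacts. The predicted gene Gm44812 had 2 loops in each stage, with 135 and 52 contacts in diestrus and 118 and 94 in estrus.

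Of the 62 diestrus loops of the Nr2f2 window, 35 were found in estrus, meaning that some estrus loop had each anchor no more than 10 kb from theirs. This was 56.5% (43.3 to 69.0), against 67.4% on chromosome 7 and 74.4% over the whole list. In the other direction 35 of the 46 estrus loops were found in diestrus, 76.1% (61.2 to 87.4), against 82.5% on chromosome 7 and 80.8% over the whole list. Loops that were not found were weaker, with median strengths of 2.54 in diestrus and 2.71 in estrus against 4.07 and 4.14 for those found.

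Among the 27 loops listed in diestrus alone, the 3 with most contacts joined 70430001 to 70490001 (228 contacts, 2.03 times the expected), 70820001 to 71410001 (189, 3.38 times) and 70330001 to 71380001 (159, 2.92 times). The strongest joined 69490001 to 71380001 with 130 contacts, 6.03 times the expected. A loop from 69490001 to 71410001, 3 bins further, was listed in both stages with 130 and 113 contacts. Among the 11 listed in estrus alone, those with most contacts joined the start bin to 70500001 and 70730001, given above, and 71380001 to 71580001 (80 contacts, 2.50 times). The strongest joined 70330001 to 71860001 with 54 contacts, 4.25 times the expected.

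The 35 Nr2f2 loops paired between the stages, 31 of them at identical bins, had fewer contacts in estrus in 33 cases. The median ratio of contacts was 0.790, against 0.957 for all 19399 pairs and 0.956 for those of chromosome 7. The ratio varied with loop length over all pairs: it was 0.936 over 200 and up to 400 kb, 0.930 over 400 and up to 800 kb, 0.935 over 800 and up to 2000 kb and 0.980 beyond. On chromosome 7 these 4 classes had 0.908, 0.919, 0.891 and 0.988. Measured against the median of its own length class, the exact conditional 95% interval of the ratio lay wholly below in 13 of the 35 Nr2f2 pairs, against 10.2% of all pairs. It lay wholly above in 0 of 35, against 8.69%. Many of these loops share an anchor, so they are not independent of each other.

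The ratio was lowest on the downstream side. There the 12 pairs had a median ratio of 0.665, and 9 of the 12 intervals lay below the median of the length class. The 18 upstream pairs had a median ratio of 0.818, and 4 intervals lay below. The 5 pairs that reach across the start had 0.886, and none of their intervals lay below. How many intervals lie below also depends on contact number, because intervals narrow with more contacts. Diestrus contacts ran from 52 to 829 downstream, from 48 to 296 upstream and from 48 to 130 across the start. The ratio for the strongest loop was 0.653 (0.585 to 0.728). The largest ratios downstream and upstream were 1.05 and 1.08, for the loops from 69650001 to 70330001 (56 and 59 contacts) and from 70820001 to 71860001 (48 and 52). Ranges overlapped between the sides, and the difference between them was not tested because loops are not replicates.

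**Figure D3:**
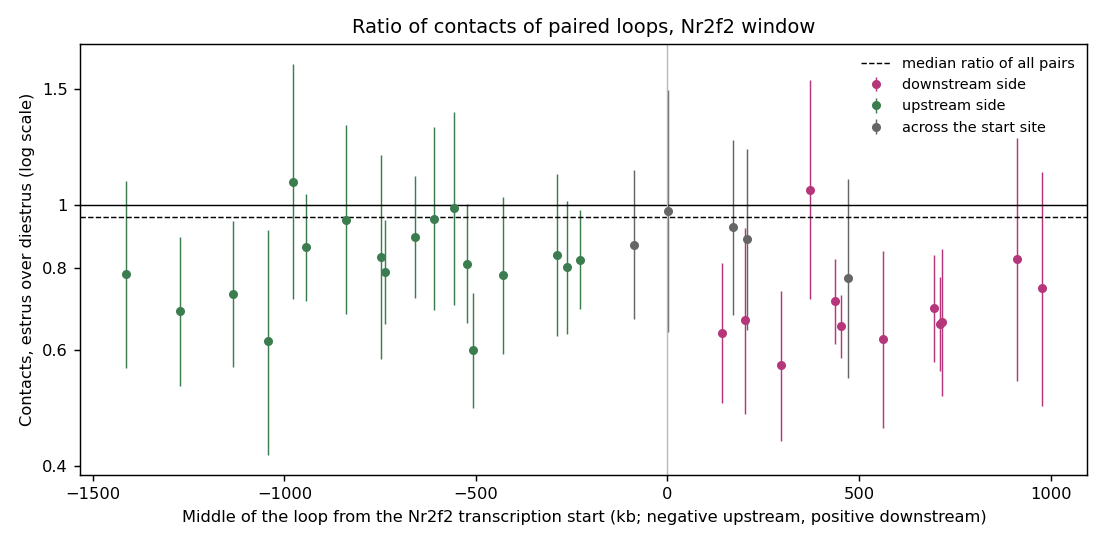
Points give the ratio of contacts, estrus over diestrus, of the 35 paired Nr2f2 loops on a log scale, by the position of the middle of the loop from the start in kb. Bars are exact conditional 95% intervals for counting error, and colours give the side of the start site. Of the 12 downstream points, 11 lie below 1, and their median is 0.665.

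The background contacts around the Nr2f2 loops were also lower in estrus. The median ratio of expected contacts was 0.841 over the 35 pairs, against 0.947 for all pairs. It was 0.80 downstream, 0.821 upstream and 0.953 across the start. Part of the lower contact number was therefore shared by the surroundings of the loops, and the ratio of strengths, which divides by that expectation, was nearer to 1. After centring on the median of all pairs, the log2 ratio of strength had a median of -0.12 (-0.24 to -0.03) at Nr2f2, and 25 of 35 pairs were below 0. Downstream pairs had a median of -0.27 (-0.41 to -0.07), upstream pairs -0.05 (-0.21 to 0.11) and pairs across the start -0.12 (-0.42 to 0.13).

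Only 1 Nr2f2 pair was over 1.5-fold stronger in diestrus, against 1.49% of all pairs with at least 20 contacts in both stages, and 0 were over 1.5-fold stronger in estrus, against 1.57%. That pair joined 69800001, which holds an end of the long non-coding RNA gene Gm35209, to 70330001. It had 165 contacts in diestrus and 94 in estrus, 5.80 and 3.91 times the expected, and lay just past the limit at 1.501-fold. The next, from 70490001 to 70810001 in diestrus and 1 bin higher in estrus, was 1.39-fold stronger in diestrus, with 112 and 94 contacts. With a lower limit, over 25% stronger, 9 Nr2f2 pairs passed in diestrus and 3 in estrus, where 8.09% of all pairs passed in each direction. The 3 were upstream loops from bins 70360001 and 70820001 to 71580001 and from 70820001 to 71860001.

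The windows of 2 Mb on either side had less of this difference. The median ratio of contacts was 0.896 over 51 pairs in the window of lower coordinate and 0.898 over 39 pairs in that of higher coordinate. Among 974 windows of 2 Mb with at least 10 pairs, 8 (0.821%) had a median as low as the 0.790 of the Nr2f2 window. These windows began at multiples of 2 Mb, so the Nr2f2 window was not one of them. Windows that overlap it were not left out. Neighbouring windows share the loops that cross their border.

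The Nr2f1 window held fewer loops, and their shares found in the other stage had wide intervals. Of the 16 in diestrus, 7 were found in estrus, 43.8% (19.8 to 70.1), against 73.6% on chromosome 13. Of the 14 in estrus, 7 were found in diestrus, 50% (23.0 to 77.0), against 78.8% on chromosome 13. The shares were 62.5% and 71.4% when anchors within 20 kb were accepted, against 62.9% and 80.4% at Nr2f2 and 76.7% and 82.9% of all loops. With both anchors inside the window they were 50% and 71.4%, against 42.4% and 73.7% at Nr2f2. The loops added at 20 kb came from bins 76840001, 76960001 and 77860001 and were listed as ending at 78170001 in diestrus and at 78200001 in estrus. These loops had 45, 42 and 54 contacts in diestrus and 68, 39 and 71 in estrus. Both end bins were anchors in both stages.

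**Figure D4:**
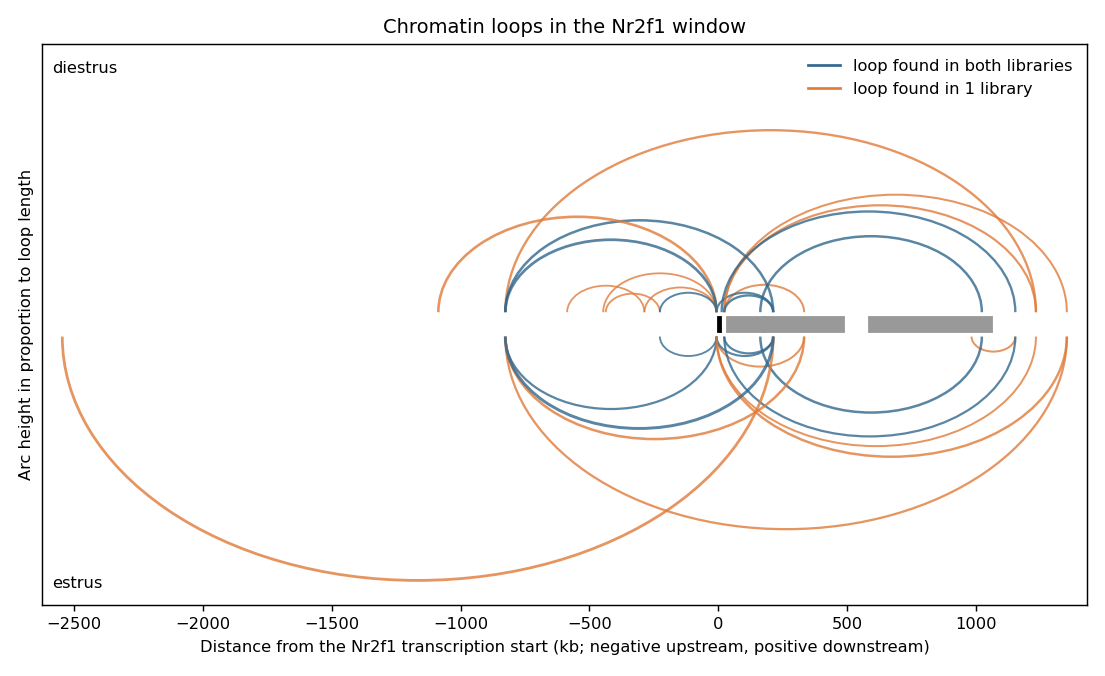
Each arc is 1 loop of the Nr2f1 window, with diestrus above and estrus below. Axes, widths and colours follow the plot of Nr2f2 loops: distance from the Nr2f1 start in kb, the gene in black, other protein-coding genes in grey, blue for loops found in both libraries and orange for 1. Blue arcs number 7 in each stage. The longest arc, in estrus, spans 2760 kb.

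The anchor with most loops at Nr2f1 was bin 78200001, just upstream of the start, with 6 loops in each stage. In diestrus 5 of them ran upstream into the desert and 1 downstream. In estrus 2 ran upstream and 4 downstream. Bin 77980001, 214 kb downstream and inside Fam172a, had 3 and 4 loops, as did bin 79020001, 826 kb upstream. Bin 78170001, centred 23.9 kb downstream of the start with an end of the long non-coding RNA gene 3110006O06Rik, had 4 and 2. The start of Nr2f1 itself, in bin 78190001, was in no anchor.

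Counted strictly by an end of the gene in an anchor, Nr2f1 therefore had 1 loop in diestrus, at its 3' end, and 0 in estrus. That loop joined 77040001, which holds an end of Slf1, a gene of DNA repair, to 78180001 with 35 contacts, 3.66 times the expected. Its partner in estrus ended 1 bin lower, at 78170001, with 40 contacts (3.34 times). Within 5 kb of a gene end there were 7 and 6 loops, and within 10 kb 11 and 8. Slf1 had 1 loop of the window in diestrus and 2 in estrus, the second reaching 77210001 with 51 contacts.

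The strongest Nr2f1 loop in diestrus joined 78200001 to 79020001 upstream, with 124 contacts in diestrus and 82 in estrus, 4.64 and 3.40 times the expected. Its contact ratio, 0.661 (0.494 to 0.881), was the only 1 of 7 whose interval lay below the median of its length class. The strongest in estrus joined 77980001 to 79020001 across the gene, with 56 contacts in diestrus and 72 in estrus, 4.10 and 5.16 times. The contact ratio of that loop was 1.29 (0.894 to 1.86), an interval that includes 1. These 2 loops share their upstream anchor, and their ratios lay on opposite sides of 1. The loops with most contacts ran downstream from the gene to 77980001: that from 78170001 had 148 and 142 contacts, and that from 78200001 had 131 and 139. Upstream, 78200001 to 78420001 had 127 and 99, and 78420001 holds an end of the long non-coding RNA gene Gm31946.

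**Figure D5:**
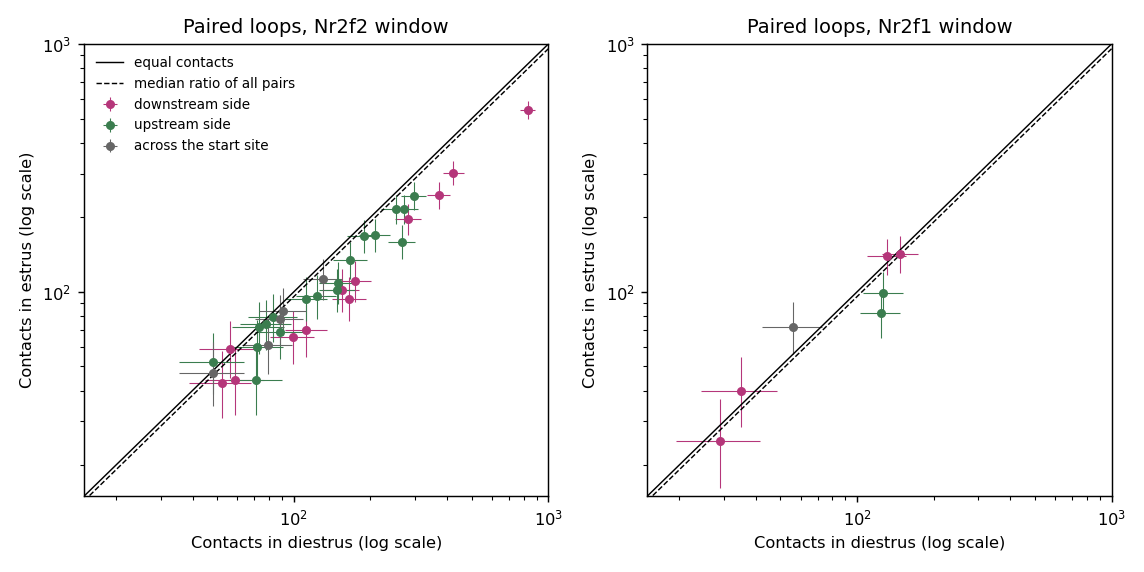
Contacts of paired loops in estrus against diestrus, both on log scales, for the Nr2f2 window (left, 35 pairs) and the Nr2f1 window (right, 7 pairs). Bars are exact Poisson 95% intervals, the solid line marks equal contacts and the dashed line the median ratio of all pairs, 0.957. At Nr2f2 33 of 35 points lie below the solid line, and at Nr2f1 4 of 7.

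The 7 paired Nr2f1 loops had a median contact ratio of 0.959, close to that of all pairs, and ratios from 0.661 to 1.29. Their expected contacts had a median ratio of 1.02. The centred log2 ratio of strength had a median of -0.15 (-0.47 to 0.32), with 5 of 7 below 0, and 0 pairs were past 1.5-fold in either direction. These loops share anchors and are few.

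Of the 9 Nr2f1 loops listed in diestrus alone, 6 were on the upstream side or across the start, and the 3 with most contacts all lay upstream. They joined 78200001 to 78480001 (88 contacts) and 78640001 (78), and 78420001 to 78630001 (77). Their strengths were 2.37, 2.32 and 2.37. A further loop from 78200001 reached 79280001, 1080 kb upstream, with 63 contacts, 4.35 times the expected. Of the 7 listed in estrus alone, those with most contacts joined 78200001 to 77860001 (71 contacts, 2.72 times) and 76840001 (68, 3.89 times), which end at 78170001 in the diestrus list. The third, 77040001 to 77210001, lay away from the gene. The longest joined 77980001 to 80740001 over 2760 kb with 29 contacts, 4.70 times. By side, the upstream loops of Nr2f1 numbered 7 in diestrus and 2 in estrus, the downstream loops 7 and 8 and those across the start 2 and 4.

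Genes of the pathway list had mostly few loops at their ends. The list holds the route from progesterone to COUP-TFII, and also genes outside that route. The latter are Bmp2 and its receptors, Wnt4, the related Nr2f6, Hand2, and the estrogen receptor with coregulators. In the whole list, 17 genes had a loop in either stage. More loops were listed in diestrus for 9 of the 17, against 33.5% of the 9049 protein-coding genes with a loop, and more in estrus for 2, against 25.1%. The numbers were equal for 6. The median difference was 0 for the list and for all these genes. Summed over the list there were 49 loops in diestrus and 37 in estrus.

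Pgr, the progesterone receptor, had 4 loops in each stage with 1197 contacts in diestrus and 877 in estrus. Ihh, the ligand, had 1 in each, with 87 and 85 contacts. Of the receptors and transducers, Smo had 3 and 1, Sufu, an inhibitor of Gli factors, 2 and 1, and Ptch1 and the decoy receptor Hhip 1 and 0 each. Of the Gli factors, Gli2 had 3 and 3 and Gli3 2 and 3. Gli1 and Wnt4 had none in either stage. Bmp2, the decidual signal downstream of COUP-TFII, had 9 loops in diestrus and 5 in estrus, with 1133 and 578 contacts. Its receptors Bmpr1a and Bmpr2 had 1 and 1, and 1 and 0. Nr2f6, the third COUP-TF family member, had 2 and 0. Of the estrogen receptor and its coregulators, Esr1 had 3 and 3 with 519 and 919 contacts, Ncoa1 2 and 1, Ncoa2 5 and 7 and Nrip1 8 and 6. Hand2, a stromal factor induced by progesterone, had 1 and 1.

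Nr2f2 had more loops at its ends than any gene of that list. Over all 21631 protein-coding genes, 9 others had at least as many in diestrus and 9 in estrus. The genes with the most similar numbers over the 2 libraries were Maf, a leucine zipper transcription factor, with 14 and 13 loops, and Rspo3, a Wnt enhancer, and Wnt5a, a Wnt ligand, with 11 and 12 each. Each differed from Nr2f2 by 2 loops in sum, as did 6 genes in all, ordered by how close their contacts came to those of Nr2f2. Contacts were 2046 and 1488 at Maf, 2062 and 1860 at Rspo3, and 2290 and 1943 at Wnt5a, against 2088 and 1624 at Nr2f2. For Nr2f1 the same measure did not separate genes, since 1178 had the same 1 and 0 loops, with Chrm3, E030030I06Rik and Mcee first by contacts (35 and 0 each).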

How the data were processed

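Uterine Hi-C was analysed from 1 library in diestrus and 1 in estrus. The submitters' processing notes name Juicer and mm10, while the sources used here state no aligner, version or caller setting. Per the file headers, the lists are output of HiCCUPS, Juicer's loop caller, 1 loop per line with anchors of 10 kb. Contacts and merged pixels per loop were deposited as raw counts. Expected contacts, deposited for 4 local neighbourhoods, are a signal in the same unit. The deposited q-values reached 0.0955 in diestrus and 0.0991 in estrus.

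Strength was contacts over the donut expectation. Loops with both anchors within 10 kb (nearest edges) counted as found, and mutually nearest ones were paired, their log2 strength ratio centred on the median of all pairs. A loop was on 1 side of a gene when neither anchor passed the bin beside its start bin. With 1 library a group, called means past 1.5-fold with at least 20 contacts in both stages. Contacts have exact Poisson and their ratios exact conditional intervals at 95%, shares have Clopper-Pearson intervals, and medians intervals from binomial order statistics. The last 2 kinds treat loops as independent. Without molecular identifiers, read pairs may repeat molecules. Gene positions, strands and promoters came from RefSeq tables of GRCm38.p6, the assembly that mm10 names, and coordinates are 1-based.

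The members and lists were chosen with earlier results of these data known. Named were both members, protein-coding genes with an end in an anchor, non-coding genes sharing their bin, the pathway list, the 3 genes most alike in loop number, all loops at a gene end, the 3 strongest, the longest, the 3 single-library loops with most contacts, pairs past the fold and the 3 bins with most loops. The other bins, the non-coding genes in them and further loops, the split by side, the comparison with length classes, the neighbouring windows, the pairs of bins with at least 5 loops and the CpG description were chosen after the values were seen. Matching was tested on simulated data. Python 3.11.15, pandas 2.3.3, SciPy 1.17.1 and matplotlib 3.10.9 were used. Alternatives covered the q limit, membership, window width, list length, tolerance, expectation, centring, fold and gene assignment. A member of the pathway list is not reported here. No genome sequence was used, so anchors were not searched for motifs.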

Additional observations from a re-analysis of the deposited data

How the results depend on the processing

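Of 106 alternatives tried over 26 results, 84 kept the value within the limits set, 21 moved it and 1 turned its direction. With both anchors required inside the window, 33 diestrus and 19 estrus loops were left at Nr2f2 and 10 and 7 at Nr2f1. The share of Nr2f2 diestrus loops found in estrus was then 42.4%, the median strength at Nr2f2 2.67 in diestrus and 2.75 in estrus, and the median diestrus length 480 kb. The same choice gave shares of 50% and 71.4% and median lengths of 290 and 340 kb at Nr2f1. With the largest of the 4 expectations, median strength at Nr2f2 was 2.37 and 2.56, and 0 pairs passed 1.5-fold in diestrus. That count was also 0 at 2-fold, and 0 over pairs at identical bins, where the pair is kept but the centring also comes from those pairs, and 9 with a limit of 25% stronger. At that limit, 3 Nr2f2 pairs were stronger in estrus and 1 Nr2f1 pair in diestrus. With contacts alone, not divided by the expectation but still centred on all pairs, the median log2 ratio was -0.28 at Nr2f2 and 0.0042 at Nr2f1. The Nr2f1 value turned positive relative to all pairs only: its uncentred contact ratio was 0.959, against 0.957 for all pairs. Expected contacts had a median ratio of 1.02 at Nr2f1, against 0.947 for all pairs. Why the expected contacts differed was not tested. Accepting gene ends within 5 kb gave Nr2f1 7 loops in diestrus and 6 in estrus, and within 10 kb 11 and 8. No paired analysis was possible because each stage had 1 library, and leaving out a library would leave none. Depth limits the weaker loops: at 56 contacts in diestrus and 59 in estrus the ratio of 1.05 had an interval from 0.718 to 1.55.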
